A study of Homo sapiens with 6 samples.

Results

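The clustered protocadherin locus on chromosome 5 was described from 110 peaks of 2 histone marks, chosen by position alone, out of 148837 peaks on chromosomes 1 to 22 and X. The peaks overlapped chr5:140160000-140900000 (hg19) in chromatin immunoprecipitation sequencing of NCI-H69, called H69, an established small cell lung cancer line, and of H69M, a line derived from H69. No drug or knockdown is labelled in either line. Of the 6 samples, 4 had a peak list: H69 H3K27ac (15 peaks in the locus), H69M H3K27ac (14), H69 H3K27me3 (43) and H69M H3K27me3 (38). The inputs of both lines were not analysed here. The rule split the locus into the alpha cluster (chr5:140160000-140395000, 18 peaks), the beta cluster (chr5:140425000-140630000, 28 peaks) and the gamma cluster (chr5:140705000-140900000, 59 peaks), and left 5 peaks in the spaces between them.

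Each line and mark is 1 library of 1 cell line, so no value below has a replicate error and none was tested between the lines. Read depth is unknown, and over all peaks the H69M lists were longer, with 51091 against 38255 H3K27ac peaks and 37853 against 21638 H3K27me3 peaks. Each peak carries the authors' score, which is given here to describe peaks within 1 list. Across the lists 1 limit on it, a score of 100 or more, was applied as an alternative setting and in a count per list. No gene annotation of hg19 was at hand, so the peaks carry no gene names, and neither the name of the locus nor the labelled cell type could be checked against gene positions.

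Clustered protocadherins are cadherin-like adhesion proteins of the cell surface, best known in neurons, where each cell uses its own small set of them and like sets recognise each other across cells. In the alpha and gamma clusters every variable exon has a promoter of its own and is spliced to constant exons shared by the cluster, whereas the beta genes are single exons without a constant part. Promoters are chosen through CTCF and cohesin, which bring them to distant enhancers. Across several tumour types the clusters are known for silencing over long stretches. H3K27ac marks active promoters and enhancers, and H3K27me3, written by Polycomb repressive complex 2, marks silenced chromatin.

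The RefSeq table, on GRCh38.p14, lists 53 protein-coding members: 15 alpha genes (13 plus the C-type PCDHAC1 and PCDHAC2), 16 beta genes and 22 gamma genes (12 of type A, 7 of type B and 3 of type C). In that order SLC25A2 and TAF7 lie between the beta and gamma genes, and DIAPH1 follows PCDHGC5. Most of the promoters share a conserved element whose core reads CGCT. Promoter sequences were at hand for 47 of the 53 genes, with 52 start sites. In the 100 bases before the start, CGCT stood on the gene's strand at 44 of 52 start sites (84.6%) and on either strand at 46 (88.5%). Among all 35116 promoters of the table it did so at 28.1% and 44.8%. By cluster the same-strand count was 12 of 13 start sites in alpha, 13 of 14 in beta and 19 of 25 in gamma. A match to 4 letters is a description of the sequence and shows no binding. The 8 stretches below show where these letters stand in 2 or 3 genes of each cluster, with CGCT in capitals. PCDHAC2 is known as a member without the element, so its matches are to the letters alone. In the other genes, too, no match was checked beyond these 4 letters. The comparison with all promoters was not matched for base composition. Their coordinates are on GRCh38 and cannot be set against the hg19 peaks.
PCDHA1 (GRCh38.p14 chr5:140786040-140786139, plus strand): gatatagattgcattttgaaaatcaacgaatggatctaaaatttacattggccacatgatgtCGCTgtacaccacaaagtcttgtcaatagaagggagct
PCDHA12 (GRCh38.p14 chr5:140875208-140875307, plus strand): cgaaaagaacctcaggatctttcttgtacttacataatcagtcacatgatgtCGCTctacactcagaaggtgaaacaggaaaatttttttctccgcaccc
PCDHAC2 (GRCh38.p14 chr5:140966376-140966475, plus strand): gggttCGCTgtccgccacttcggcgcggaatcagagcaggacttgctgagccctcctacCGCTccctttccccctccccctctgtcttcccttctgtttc
PCDHB2 (GRCh38.p14 chr5:141094515-141094614, plus strand): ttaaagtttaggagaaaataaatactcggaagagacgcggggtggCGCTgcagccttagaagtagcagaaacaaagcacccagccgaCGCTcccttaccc
PCDHB15 (GRCh38.p14 chr5:141245295-141245394, plus strand): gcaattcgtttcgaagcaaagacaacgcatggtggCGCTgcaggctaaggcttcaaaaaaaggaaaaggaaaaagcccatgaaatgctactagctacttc
PCDHGA1 (GRCh38.p14 chr5:141330414-141330513, plus strand): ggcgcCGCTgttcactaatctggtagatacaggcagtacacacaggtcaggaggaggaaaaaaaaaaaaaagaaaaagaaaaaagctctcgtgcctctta
PCDHGB7 (GRCh38.p14 chr5:141417577-141417676, plus strand): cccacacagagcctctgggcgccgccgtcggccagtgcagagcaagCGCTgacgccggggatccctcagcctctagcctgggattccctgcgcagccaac
PCDHGC3 (GRCh38.p14 chr5:141475866-141475965, plus strand): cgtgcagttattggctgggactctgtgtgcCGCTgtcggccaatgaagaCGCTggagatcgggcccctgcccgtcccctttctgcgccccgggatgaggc
These 4 letters stood once in 5 of the stretches and occurred 2 times in those of PCDHAC2, PCDHB2 and PCDHGC3.

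Peaks of the 2 marks stood mostly at different places in both lines, and most of the locus had no peak of either. The H3K27ac peaks took up 1.80% (H69) and 2.73% (H69M) of the window. For H3K27me3 the covered share was 1.31% (H69) and 0.893% (H69M). H3K27ac lay at a few separate sites, most of them in the alpha cluster, between the clusters and at the end of the gamma cluster. H3K27me3 lay in short peaks scattered over the beta cluster and the first part of the gamma cluster. All 81 H3K27me3 peaks fell inside the 3 clusters, and neither list had one in the spaces between them, where 5 of the 29 H3K27ac peaks lay. The longest stretch without H3K27me3 in either line ran from chr5:140167990-140431209, over 263 kb of the alpha cluster and the space behind it, and held 8 H3K27ac peaks in H69 and 6 in H69M. The longest stretch without H3K27ac in either line, chr5:140474851-140699749, covered 225 kb of the beta cluster and the space behind it and held 8 H3K27me3 peaks in each line.

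**Figure D1:**
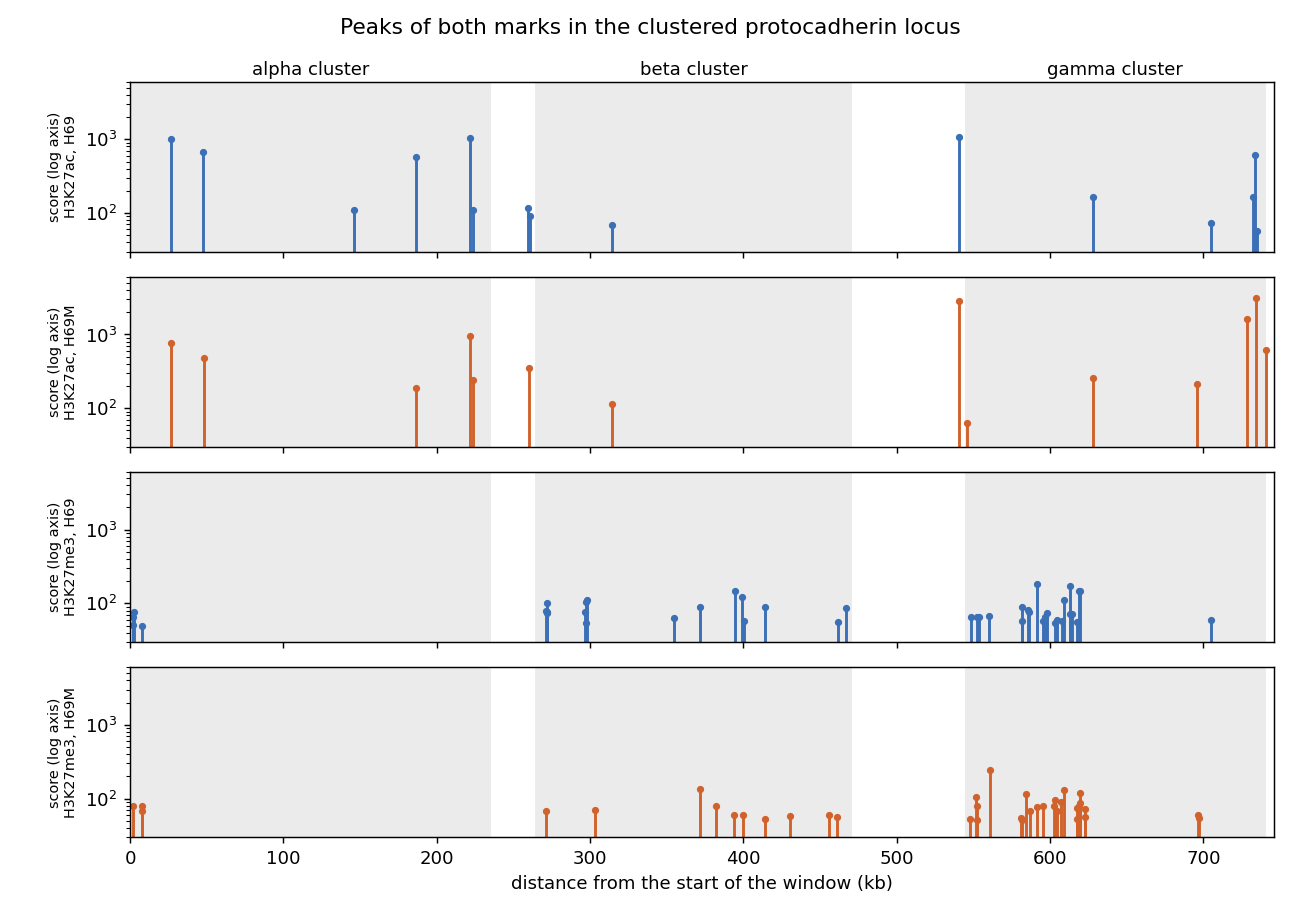
Every peak of the locus by distance from the start of the window (x axis, kb) and by the authors' score (y axis, log scale), 1 row per mark and line, with the alpha, beta and gamma clusters in grey. H3K27ac stands at a few sites in alpha and at the end of gamma, and H3K27me3 in beta and the first part of gamma, in both lines.

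H3K27ac in the alpha cluster, which makes the alpha isoforms, stood at mostly the same sites in both lines, with similar widths there. Only widths were compared, since the score describes peaks within 1 list. The 6 peaks of H69 spanned 6.29 kb and the 5 of H69M 5.26 kb, a ratio of 0.837. Each of the 5 H69M peaks overlapped an H69 peak. The first pair was 796 bp wide in H69 (chr5:140186555-140187350, score 995.9) and 874 bp in H69M (chr5:140186452-140187325, score 757.2). The second pair was 802 bp (chr5:140207510-140208311, score 667.6) and 755 bp wide (chr5:140207582-140208336, score 481.7). The third was 1196 bp (chr5:140345772-140346967, score 569.0) and 1208 bp wide (chr5:140345710-140346917, score 189.4). These pairs differed in width by at most 1.10 times.

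A neighbouring couple of sites closed the alpha cluster. At chr5:140380882-140382223 in H69 (1342 bp, score 1031) H69M had a peak of 1312 bp (score 963.7), and at chr5:140382795-140384058 in H69 (1264 bp, score 110.01) H69M had one of 1113 bp (score 242.6). The 3 highest scores of the alpha cluster belonged to the same 3 sites in both lists. Only chr5:140305933-140306820 (888 bp, score 110.4) was listed in H69 and not in H69M, with the nearest H69M peak 38889 bp away. Without it the alpha peaks came to 5.40 kb (H69) and 5.26 kb (H69M), so most of the alpha difference was this 1 peak.

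In the space between the alpha and beta clusters H69 had a pair of peaks, chr5:140419471-140420198 (score 117.5) and chr5:140420352-140420956 (score 91.2), over 1.33 kb together. H69M had 1 peak over both, chr5:140419313-140421082 (1.77 kb, score 349.5). An enhancer of the alpha genes is known downstream of the alpha constant exons, but whether it lies at this site could not be read from the files. The beta cluster held 1 H3K27ac peak in each line, with the same first base, at chr5:140474175-140474646 in H69 (472 bp, score 68.7) and chr5:140474175-140474850 in H69M (676 bp, score 114.7). Between the beta and gamma clusters H69 had chr5:140699750-140700877 (1.13 kb, score 1083) and H69M chr5:140699810-140701079 (1.27 kb, score 2809). These 3 sites were all listed in both lines and somewhat wider in H69M.

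The gamma cluster held the largest difference in H3K27ac of the locus. The 5 peaks of H69 spanned 4.08 kb there and the 6 of H69M 11.2 kb, a ratio of 2.75. Most of this length lay in the last 20 kb, where each line had 3 peaks, 2.93 kb long together for H69 and 8.38 kb for H69M. There H69 had chr5:140892014-140892568 (score 167.6), chr5:140892733-140894525 (1.79 kb, score 604.3) and chr5:140894714-140895295 (score 56.5). H69M had a single peak over all of them, chr5:140891527-140896572 (5.05 kb), at a score of 3100, a value that many strong peaks of both H3K27ac lists share. A further H69M peak of 3.12 kb, chr5:140886875-140889998 (score 1641), overlapped no H69 peak and stood 2.02 kb from one. The last H69M peak, chr5:140899792-140901637 (score 613.3), crossed the end of the window, and the next one began 1.69 kb outside it, whereas the next H69 peak began 37.02 kb outside. In the 740 kb after the window the ratio was similar, 2.88. DIAPH1 follows the gamma genes, and without hg19 gene positions the H3K27ac length at this end could not be given to either.

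Before its last 20 kb the gamma cluster carried 1.15 kb (H69) and 2.84 kb (H69M) of H3K27ac, a ratio of 2.47. One site was listed in both lines, chr5:140787548-140788129 in H69 (582 bp, score 163.4) and chr5:140787430-140788108 in H69M (679 bp, score 254.8). At the start of the cluster H69M alone had chr5:140705611-140706339 (score 62.4). Farther on H69M had chr5:140855165-140856591 (1.43 kb, score 215.5), and H69 had chr5:140864387-140864954 (568 bp, score 72.4), which lay 7.80 kb apart with no counterpart within 5000 bp in the other line.

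Over the whole locus H3K27ac came to 13.3 kb (H69) and 20.2 kb (H69M), a ratio of 1.52, beside 1.59 over all peaks and 1.83 over chromosome 5. Without the last 20 kb, a limit chosen after the peaks had been seen, the ratio was 1.14 (10.4 and 11.8 kb). A greater H3K27ac length in H69M was the common case, found in 86.9% of 3609 windows of 740 kb laid end to end over the chromosomes. Windows of the size of the gamma cluster showed it in 81.9%, so the gamma direction matched most of the genome. A shorter H3K27ac length in H69M, as in alpha, was found in 17.1% of 9283 windows of the alpha cluster's size.

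**Figure D2:**
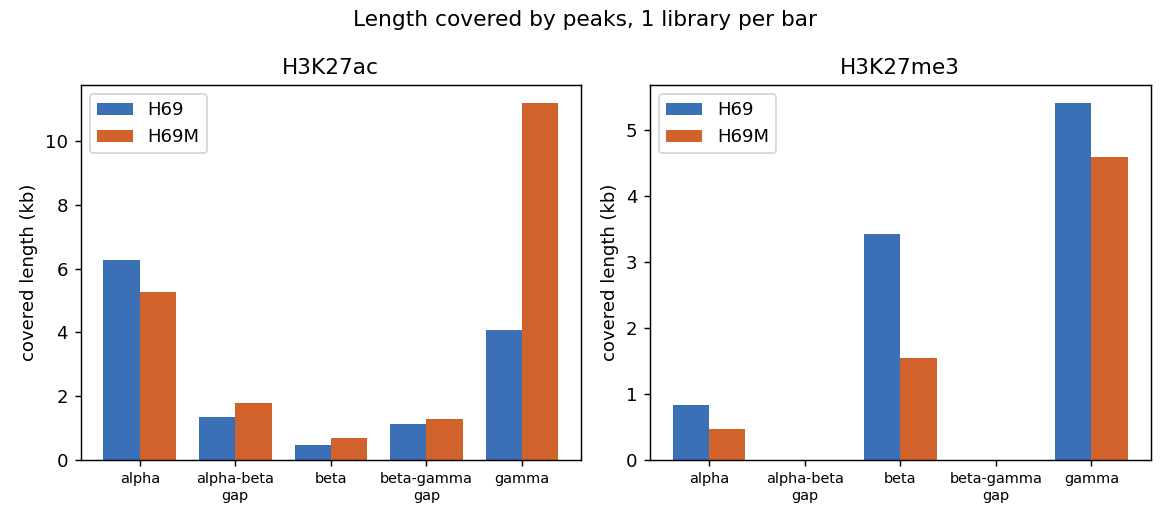
Length covered by peaks (y axis, kb) in each cluster and in the spaces between them (x axis), for H3K27ac on the left and H3K27me3 on the right, each bar 1 library. H3K27ac differs most in gamma (4.08 and 11.2 kb), and H3K27me3 most in beta (3.43 and 1.55 kb).

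Of the 15 H69 peaks of H3K27ac 2 had no overlapping H69M peak, beside 22.5% of the H69 list, and the same 2 had none within 5000 bp, beside 13%. Of the 14 H69M peaks 4 had no overlapping H69 peak, all of them in gamma, beside 48.4% of the H69M list, and 1 had none within 5000 bp, beside 34.7%. The shared shares were 86.7% in H69 (exact 95% binomial interval 59.5 to 98.3) and 71.4% in H69M (41.9 to 91.6), and these intervals cover counting error only and take peaks as independent. Joined across the lines, the shared peaks formed 10 sites, of which 7 were longer in H69M, beside 77.8% of 25526 such sites of the genome. The other 3 were shorter in H69M, beside 22.1%, and all lay in alpha. The median ratio of the 10 sites was 1.11 (range 0.881 to 1.72), against 1.20 over all sites.

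H3K27me3, the silencing mark, took up less length in H69M in each cluster, while the H69M list as a whole was longer. Its length in the locus was 9.68 kb (H69) and 6.61 kb (H69M), a ratio of 0.683, beside 1.62 over all peaks and 1.10 over chromosome 5. The difference was partly one of width, since the median peak of the locus was 195 bp wide in H69 and 148.5 bp in H69M. The same held for the full lists, at 185 and 156 bp. Peaks were weak, with a median score of 74.0 in H69 and 71.1 in H69M, and a score of 100 or more was listed for 9 of 43 peaks (H69) and 6 of 38 (H69M). None reached a score of 300. The lowest score of the lists was 50, and signal under it, such as a broad weak domain, cannot be read from peak lists. A place without a peak is therefore not shown to lack the mark.

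For its length, the gamma cluster held the most H3K27me3 peaks and the alpha cluster the fewest. In H69 there were 1.70 H3K27me3 peaks per 100 kb in alpha, 7.80 in beta and 11.8 in gamma. In H69M there were 1.28, 4.88 and 12.8. The order of the clusters was thus the same in both lines.

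In the alpha cluster H3K27me3 was limited to the first 8 kb in both lists. The 4 peaks of H69 spanned 0.829 kb, the strongest at chr5:140162511-140162818 (score 76.1), chr5:140161834-140161988 (65.6) and chr5:140162021-140162186 (51.0). The 3 peaks of H69M spanned 0.461 kb, at chr5:140161687-140161840 (score 78.9), chr5:140167490-140167644 (78.6) and chr5:140167838-140167989 (68.3). All lay within 1000 bp of a peak of the other line, and 2 in each line overlapped one.

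The beta cluster showed the lowest ratio, 0.451, from 16 H69 peaks of 3.43 kb together and 10 H69M peaks of 1.55 kb. Its strongest H69 peaks were chr5:140554236-140554622 (387 bp, score 146.8), chr5:140559103-140559390 (288 bp, 122.2) and chr5:140457931-140458207 (277 bp, 112.9). In H69M they were chr5:140531614-140531857 (244 bp, score 133.1), chr5:140542377-140542529 (153 bp, 79.2) and chr5:140463316-140463457 (142 bp, 70.8). The 3 highest scores of each line therefore stood at different places. Some had a peak of the other line nearby that was not among the 3 highest of its own list. The strongest H69M peak lay 102 bp from an H69 peak with a score of 88.1. The H69M peaks next to the H69 peaks of 387 and 288 bp were 137 bp and 139 bp wide, each with a score of 59.5.

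No H3K27me3 peak of the beta cluster overlapped one of the other line, 0 of 16 in H69 and 0 of 10 in H69M. Over the full lists 67.4% of H69 peaks and 81.1% of H69M peaks also had no overlapping counterpart. Yet 10 of the 16 H69 peaks lay within 1000 bp of an H69M peak, with gaps of 4 to 886 bp, and 6 of the 10 H69M peaks lay that close to an H69 peak, with gaps of 4 to 307 bp. The shares of the full lists with a counterpart that close were 52.8% and 40.2%, not matched for peak density. At chr5:140573715-140573892 in H69 and chr5:140573897-140574024 in H69M the peaks were 4 bp apart. The remaining 6 and 4 peaks were 5.11 kb or more from the other line. Among them a group of 4 H69 peaks from chr5:140456867-140458207 had no H69M peak closer than 5.11 kb.

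**Figure D3:**
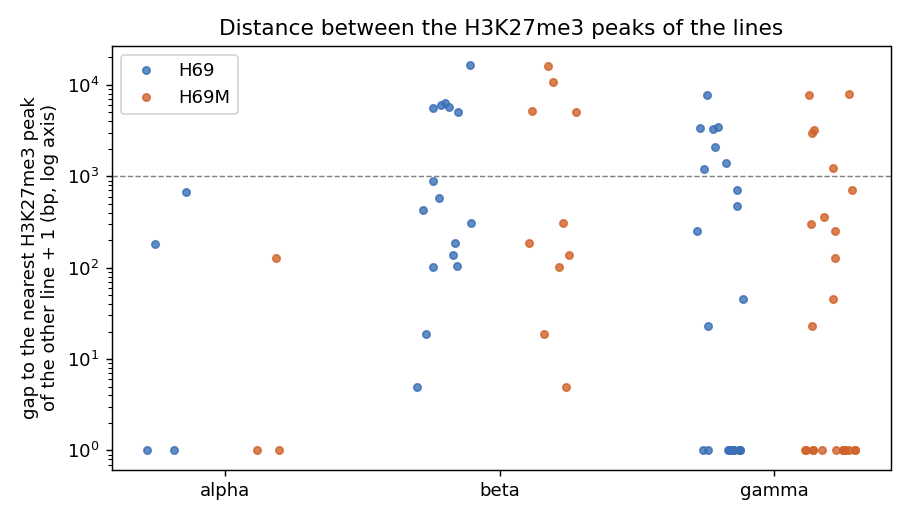
Gap from each H3K27me3 peak to the nearest H3K27me3 peak of the other line plus 1 (y axis, bp, log scale), by cluster (x axis) and line (colour), where overlapping peaks stand at 1 and the dashed line marks 1000 bp. In beta no peak overlaps, but 10 of 16 H69 peaks and 6 of 10 H69M peaks lie below the line.

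The gamma cluster held most of the H3K27me3, from 23 H69 peaks of 5.42 kb together and 25 H69M peaks of 4.60 kb, a ratio of 0.849. All but 1 H69 peak and 2 H69M peaks lay in one stretch of 75.1 kb, chr5:140707888-140782992, with 22 peaks in H69 and 23 in H69M and no H3K27ac peak of either line. The 3 strongest H69 peaks were chr5:140751406-140751962 (557 bp, score 181.7), chr5:140772865-140773243 (379 bp, 171.3) and chr5:140778918-140779273 (356 bp, 149.5). The first overlapped an H69M peak of 274 bp (score 76.7), the second was 3491 bp from the nearest H69M peak, and the third overlapped 2 H69M peaks.

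In H69M the strongest gamma peak was chr5:140720336-140720790 (455 bp, score 245.8), the highest H3K27me3 score of the locus in that list, and it lay 22 bp from an H69 peak of 165 bp (score 67.5) without overlapping it. The next were chr5:140769050-140769373 (324 bp, score 130.3), which overlapped an H69 peak of 263 bp (score 109.9), and chr5:140779160-140779377 (218 bp, score 118.4), which overlapped 2 H69 peaks. Joined across the lines, shared peaks formed 10 sites in gamma and 2 in alpha. Of these 12 sites 10 were shorter in H69M, beside 47.2% of 5937 such sites of the genome, and 2 were longer, beside 52.5%. Their median ratio was 0.870 (range 0.492 to 1.76), against 1.03 over all sites.

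Of the 43 H69 peaks of H3K27me3 30 had no overlapping H69M peak, beside 67.4% of the list, and of the 38 H69M peaks 23 had no overlapping H69 peak, beside 81.1%. With a counterpart allowed within 1000 bp, 13 of 43 and 9 of 38 had none, beside 47.2% and 59.8%. In these terms 69.8% of H69 peaks (exact 95% interval 53.9 to 82.8) and 76.3% of H69M peaks (59.8 to 88.6) had a neighbour in the other line, against 52.8% and 40.2% of the full lists. Neighbouring peaks share their surroundings, so the intervals are too narrow. A neighbour within 1000 bp is also likelier where peaks stand densely, and the full lists were not matched for density. The locus held 5.81 (H69) and 5.14 (H69M) H3K27me3 peaks per 100 kb. The 740 kb before it held 2.57 and 3.92, and the 740 kb after it 2.70 and 1.35. The higher shares therefore do not show that the lines were more alike here.

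A shorter H3K27me3 length in H69M was found in 36.6% of 2451 windows of 740 kb, and in 37.8%, 38% and 38.2% of windows of the size of the alpha, beta and gamma clusters. Unlike the locus, 834 of the 2451 windows had no H3K27me3 in 1 of the lines. The same held for 2254 of 5032, 2488 of 5412 and 2628 of 5617 windows of the cluster sizes, which widens this background. More H3K27ac together with less H3K27me3 in H69M, as in the whole locus, was found in 33.6% of the 1483 windows of 740 kb with peaks in all 4 lists. The combination was therefore common in these lists.

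**Figure D4:**
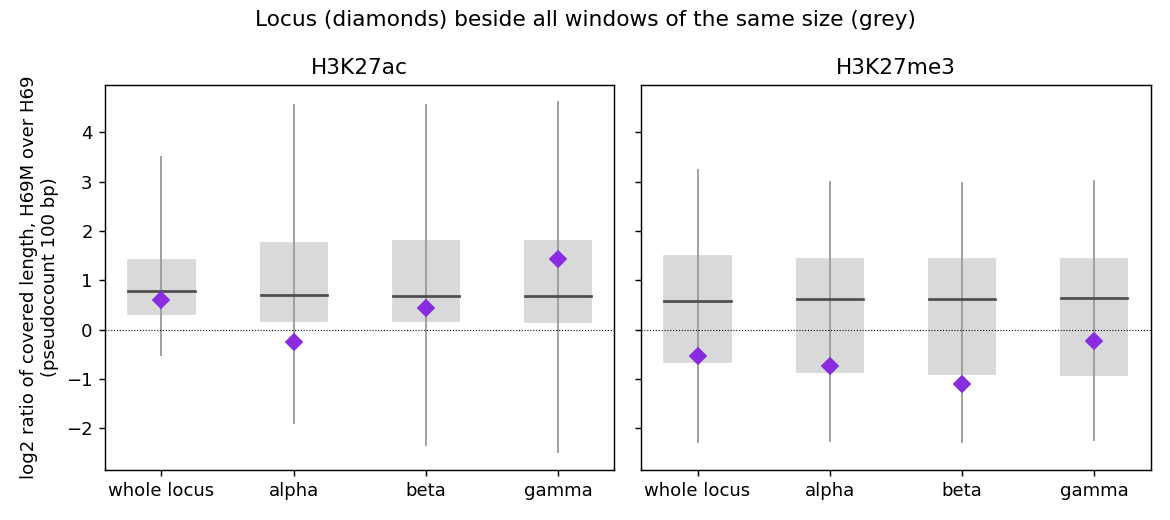
Log2 ratio of covered length, H69M over H69 (y axis, pseudocount 100 bp), for the locus and its clusters (diamonds) and for all windows of the same size (grey line from percentile 5 to 95, box from 25 to 75, bar at the median). H3K27ac lies below the box in alpha, H3K27me3 lies below it in beta, and the other diamonds lie within their boxes.

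In bins of 10 kb, H3K27ac higher in H69M past 2-fold was less frequent in the locus than over all bins, while lower was about as frequent. Of 15 bins with a peak, 2 were higher in H69M, beside 41.9% of all such bins, and 2 were lower, beside 11.7%, while 11 differed by less. Both higher bins lay in gamma, and the lower ones were the bins of the alpha peak and the gamma peak listed in H69 alone. The median log2 ratio was 0.19, against 0.57 over all bins. For H3K27me3 7 of 23 bins were higher in H69M, beside 48.4%, and 8 were lower, beside 26.8%. Here the median log2 ratio was -0.29, against 0.93 over all bins. Both values carry a pseudocount of 100 bp, close to the width of 1 peak, so 1 H3K27me3 peak of over 100 bp in a single line passes the fold.

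**Figure D5:**
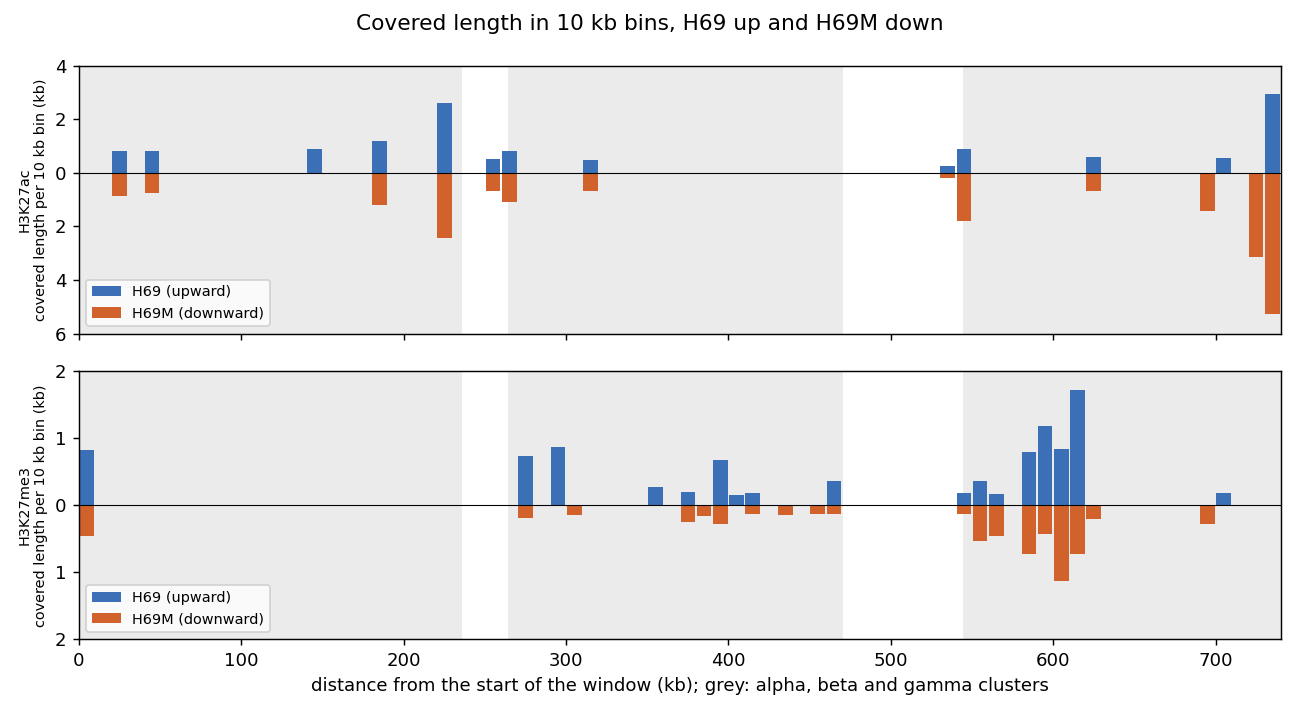
Covered length per 10 kb bin (y axis, kb, H69 upward and H69M downward) by distance from the start of the window (x axis, kb), with H3K27ac above and H3K27me3 below and the clusters in grey. The H3K27ac bins of alpha mirror each other except 1, the last gamma bins are longer in H69M, and several beta bins of H3K27me3 hold a peak in a single line.

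The marks met at 1 place in each line, both late in the gamma cluster. In H69 the weak H3K27ac peak at chr5:140864387-140864954 lay over an H3K27me3 peak of 180 bp, chr5:140864627-140864806 (score 58.8). In H69M the H3K27ac peak at chr5:140855165-140856591 lay over one of 136 bp, chr5:140856446-140856581 (score 59.5), with another, chr5:140856725-140856866 (score 55.03), 133 bp beyond its end. That is 1 of 15 H3K27ac peaks in H69 and 1 of 14 in H69M, beside 0.805% and 1.56% of the full lists. At both places the other line listed neither mark. The H3K27me3 peaks and the H69 H3K27ac peak were weak. The H69M H3K27ac peak had a score of 215.5, beside a median of 237.9 in its list.

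No peak of one mark in one line lay under the other mark in the other line. Of the 43 H69 peaks of H3K27me3 0 overlapped H69M H3K27ac, which allows a share of up to 6.98%, beside 4.63% of the full list. Of the 38 H69M peaks 0 overlapped H69 H3K27ac, which allows up to 7.89%, beside 2.78%. These counts do not tell the locus from the full lists. Elsewhere the distance between the marks differed by cluster. In alpha the nearest H3K27me3 peak of the same line was 18.6 to 124 kb from an H3K27ac peak in H69 and 18.5 to 84.5 kb in H69M. In gamma the distance varied widely, up to 29.9 kb in H69 (median 27.2 kb) and up to 42.9 kb in H69M (median 17.2 kb). The H3K27ac peaks at the end of gamma were among the far ones, and other peaks in and beside gamma were nearer. In H69M the H3K27ac peaks at chr5:140705611-140706339 and chr5:140787430-140788108 stood 1548 and 4437 bp from H3K27me3, and the peak before the gamma cluster stood 6808 bp away. In H69 the peak before the gamma cluster stood 7178 bp away, and the one at chr5:140787548-140788129 stood 7873 bp away.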

How the data were processed

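Fixed chromatin of both lines was precipitated with antibody ab4729 against H3K27ac or clone C36B1 against H3K27me3 and sequenced from paired ends, per the labels' protocols. Bowtie2, SAMtools 0.1.19 and build hg19 are named in the submitters' processing notes. The deposited lists hold 1 peak per line with a score from the authors' peak caller, whose name in the files is MACS. The sources used here do not give the definition of the score, the caller's version and settings or the use of the inputs.

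Peaks on chromosomes 1 to 22 and X were used, with 1-based coordinates. Window bounds came from the rule of the locus, and covered lengths were clipped to them. Peaks counted as shared with an overlap of 1 bp or more. Windows and bins of the genome with a peak of the mark in either line gave the background. Fold calls in 10 kb bins used a pseudocount of 100 bp. Counts of 0 carry a limit of 3 counts, which like the exact intervals covers counting error only. With 1 library per group there is no spread and no test. The procedures were tested on simulated peaks with known overlaps. Named peaks are the 3 with the highest authors' score per cluster, mark and line, those with a score of 300 or more, those with both marks, H3K27ac peaks without a counterpart within 5000 bp, and 1 peak per space between the clusters. The others were chosen after their values were seen. The members and lists were chosen with earlier results of these data known. The genes of the pathway and of the cell types listed in the plan were not used here, because no annotation of hg19 was at hand. Python 3.11.15, pandas 2.3.3, scipy 1.17.1 and matplotlib 3.10.9 were used.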

Additional observations from a re-analysis of the deposited data

How the results depend on the processing

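Alternatives were equal numbers of peaks (the longer list of a mark cut by score), a score of 100 or more, other overlap rules, windows moved out by 5000 bp and other bins. Chosen after seeing the data were the window without its last 20 kb and joining peaks of a list within 1000 bp. Of the main values under these settings, 96 stayed within 1.5 times the reported value (shared shares: within its exact interval) and 14 did not. Part of the 96 could not change, so their number does not measure robustness. The last 20 kb held no H3K27me3 peak and no alpha or beta peak, and equal numbers left the H69 lists uncut. Every covered length ratio that could be computed kept its side of 1 under these alternatives. The beta H3K27me3 ratio, 0.451, was 0.212 under equal numbers and 0.197 at a score of 100 or more. H3K27me3 peaks of the locus numbered 9 in H69 and 6 in H69M at that score, and 24 in H69M under equal numbers. Allowing 1000 bp, 69.8% of H69 and 76.3% of H69M H3K27me3 peaks had a counterpart. H3K27ac bins higher in H69M numbered 4 with 5 kb bins. H3K27me3 bins lower in H69M numbered 4 with 20 kb bins and 1 with a pseudocount of 500 bp, which left 0 higher ones. The overlap of both marks went to 0 in H69 at a score of 100 or more, and to 0 in H69M at that score and under equal numbers. A score of 100 or more left no alpha H3K27me3 peak and no H69 beta H3K27ac peak, so those ratios have no value there. No paired analysis was possible because each group holds 1 sample, and for the same reason no library could be left out. The unknown depth limits every comparison of the lists.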

Other observations

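The stretches of equal length beside the locus differed from each other. In the 740 kb before it H3K27ac came to 24.6 kb (H69) and 35.03 kb (H69M), a ratio of 1.42, and H3K27me3 covered 4.05 and 4.86 kb, a ratio of 1.20. In the 740 kb after it H3K27ac covered 10.9 and 31.4 kb, a ratio of 2.88, and H3K27me3 covered 3.91 and 1.82 kb, a ratio of 0.466.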
